A study of Mus musculus with 24 samples.

Results

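Collagen genes were described across dorsal root ganglia of 3 mouse strains before and after injury of the sciatic nerve. Members were all rows of the deposited expression files whose symbol is Col, a number, the letter a and 1 digit (Col1a1, Col28a1), which gave 43 genes of 38215. Dorsal root ganglia hold the cell bodies of sensory neurons, with satellite glia, Schwann cells, macrophages, vessels and connective tissue around them, and the sciatic nerve carries many of their axons. Each of 6 groups had 4 libraries of total RNA, which the series' design calls biological replicates: naive and injured ganglia of the strains labelled C57, CAST and DBA, the injured ones collected 5 days after a crush of the sciatic nerve. The labels name no transgene, allele or drug, and give neither sex, age nor the number of ganglia or animals behind a library. The treatment protocol sets crush against sham injury while the sample labels call the controls naive, so whether the controls had surgery was not settled. The series title concerns axon regeneration in the CAST/Ei central nervous system; the other strains of the design were not analysed here.

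Collagens are secreted or membrane-bound proteins built from 3 chains wound into a triple helix, and each gene codes for 1 kind of chain. Fibrillar collagens (types I, II, III, V, XI, XXIV and XXVII) assemble into the cables that give connective tissue its strength, and type V chains are built into type I fibrils and limit their width. Type IV collagen forms the sheet of basement membranes around vessels, Schwann cells and satellite glia, type VI forms beaded filaments, and FACIT collagens sit on the surface of fibrils. In peripheral nerve, collagens fill the endoneurium, perineurium and epineurium, and the Schwann cell basement membrane is known as a path that regrowing axons follow.

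Values are RPM, the reads of a gene per 1000000 (1 M) reads of its library. They were recovered from the deposited FPKM, which also divides by a gene's length, and all 43 genes had at least 10 reads in at least 4 libraries. The libraries held 51.4 to 145 M reads (median 107 M), and collagen counts per gene and library ran from 8 reads for Col17a1 to 81000 for Col5a3, so the precision differs widely among members. Defining genes of sensory neurons were present in every library, with a summed level of 13217 to 17684 RPM for 12 markers. Changes were tested with limma across all 27390 genes that passed the same filter, on log2(RPM + 0.5), and called at a Benjamini-Hochberg adjusted p under 0.05. Because of the added 0.5, a log2 fold change of a gene below about 2 RPM is smaller than the ratio of its means.

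Upstream sequences are shown for 3 genes that rose in all 3 strains (Col5a3, Col7a1 and Col6a5) and for the stretch that separates the paired genes Col4a4 and Col4a3, of which Col4a3 fell. The first 3 are the 250 bases before the annotated start. All come from RefSeq's promoter table on GRCm38.p6, 5′ to 3′ on the strand of the gene named, and capitals mark a CCAAT box (letters CCAAT) or a GC box (letters GGGCGG) found on either strand.
Col5a3 (chr9:20815068-20815317, minus strand): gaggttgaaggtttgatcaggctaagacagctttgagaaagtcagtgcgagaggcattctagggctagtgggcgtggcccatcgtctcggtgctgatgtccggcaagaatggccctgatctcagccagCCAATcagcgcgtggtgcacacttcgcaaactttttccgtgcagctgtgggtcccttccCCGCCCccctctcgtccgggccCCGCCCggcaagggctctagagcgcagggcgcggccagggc
Col7a1 (chr9:108953336-108953585, plus strand): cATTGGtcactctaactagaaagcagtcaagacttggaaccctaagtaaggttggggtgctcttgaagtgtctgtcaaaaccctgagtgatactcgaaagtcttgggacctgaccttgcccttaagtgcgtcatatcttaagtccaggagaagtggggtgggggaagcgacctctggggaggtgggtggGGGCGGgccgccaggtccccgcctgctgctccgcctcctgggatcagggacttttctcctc
Col6a5 (chr9:105960644-105960893, minus strand): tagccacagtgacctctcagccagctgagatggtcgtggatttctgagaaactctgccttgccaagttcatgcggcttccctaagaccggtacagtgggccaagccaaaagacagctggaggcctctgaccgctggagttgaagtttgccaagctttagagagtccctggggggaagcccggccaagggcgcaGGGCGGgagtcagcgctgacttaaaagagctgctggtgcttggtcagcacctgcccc
Col4a4 to Col4a3 (chr1:82586850-82586920, minus strand, 71 bases): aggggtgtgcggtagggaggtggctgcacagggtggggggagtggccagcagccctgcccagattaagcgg
Among the 35 members in that table, 21 (60.0%) had a GC box in the 250 bases before the start, against 35.4% of 27025 genes, and 13 (37.1%) had CCAAT, against 37.5%. The AP-1 letters TGANTCA stood in 1 of the 35 (2.86%, against 7.82% of all genes), TATAAA in 5 (14.3%, against 14.3%) and TGACGTCA in none (against 1.77%). A match describes the letters only, and no test was made of these shares.

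Some libraries stood apart for collagen genes as a whole. Naive C57 replicate 1 was the lowest of its 4 libraries for 30 of 43 members, with a median ratio of 0.697 to the mean of the other 3, and was also the lowest of them in the summed level of perineurial (90.1 RPM), endothelial (164), pericyte and smooth muscle (249), Schwann cell (5187), cartilage and bone (75.7) and adipocyte (2.04) markers. It was the highest in sensory neuron (16569) and satellite glia (2760) markers, and lay inside the group's range for fibroblast (1147, range 1003 to 1170), macrophage (161) and skeletal muscle (60.2) markers. Naive DBA replicate 4 was the lowest of its group for 34 members, and naive DBA replicate 3 was the highest for 28. Naive DBA replicate 3 was also the highest of its group in the summed level of fibroblast (1268 RPM), perineurial (119), endothelial (200.2), pericyte and smooth muscle (324), Schwann cell (7310), macrophage (174), adipocyte (15.7) and skeletal muscle (414) markers, and the lowest in sensory neuron (16264), satellite glia (2977) and cartilage and bone (100.1) markers. The part of these cells in the collagen levels of these libraries was not tested. Whether other cells also contributed to a summed level, such as through Thy1 (fibroblast list) or Pvalb (skeletal muscle list), was not tested either.

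Crush raised most collagen genes that moved. In C57 ganglia 19 of 43 members were higher and 4 lower, where 40.2% of all genes tested were called (19.3% higher, 20.8% lower). CAST ganglia had 26 members higher and 4 lower, where 48.2% of all genes were called (26.3% higher, 21.9% lower). DBA ganglia had 28 higher and 5 lower, where 51.3% were called (27.1% higher, 24.2% lower). For the members the median log2 fold change stood at 0.26 (C57), 0.48 (CAST) and 0.49 (DBA), against medians of -0.00, 0.02 and 0.01 over all genes. Of the members, 16 were higher in all 3 strains (14.1% of all genes tested were), 2 were lower in all 3 (14.2%), and Col6a4 moved in opposite directions between strains (1.2%). Of the rest, 17 were called in 1 or 2 strains and 7 in none (Col4a5, Col4a6, Col6a6, Col8a2, Col9a1, Col10a1 and Col23a1). These are bulk samples, so more cells of a type and more RNA per cell cannot be told apart. Without naive C57 replicate 1, C57 had 16 members higher and 5 lower: Col14a1, Col1a2, Col3a1 and Col6a3 were no longer called, and Col4a5 and Col6a6 were. The C57 calls of Col1a2, Col6a3 and Col14a1 lay close to the threshold and were lost in 15, 16 and 12 of the 24 fits that left out 1 library of any group. Among the 16 higher in all 3 strains, the CAST calls of Col2a1 and Col24a1 were also lost without single CAST libraries, named below.

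**Figure D1:**
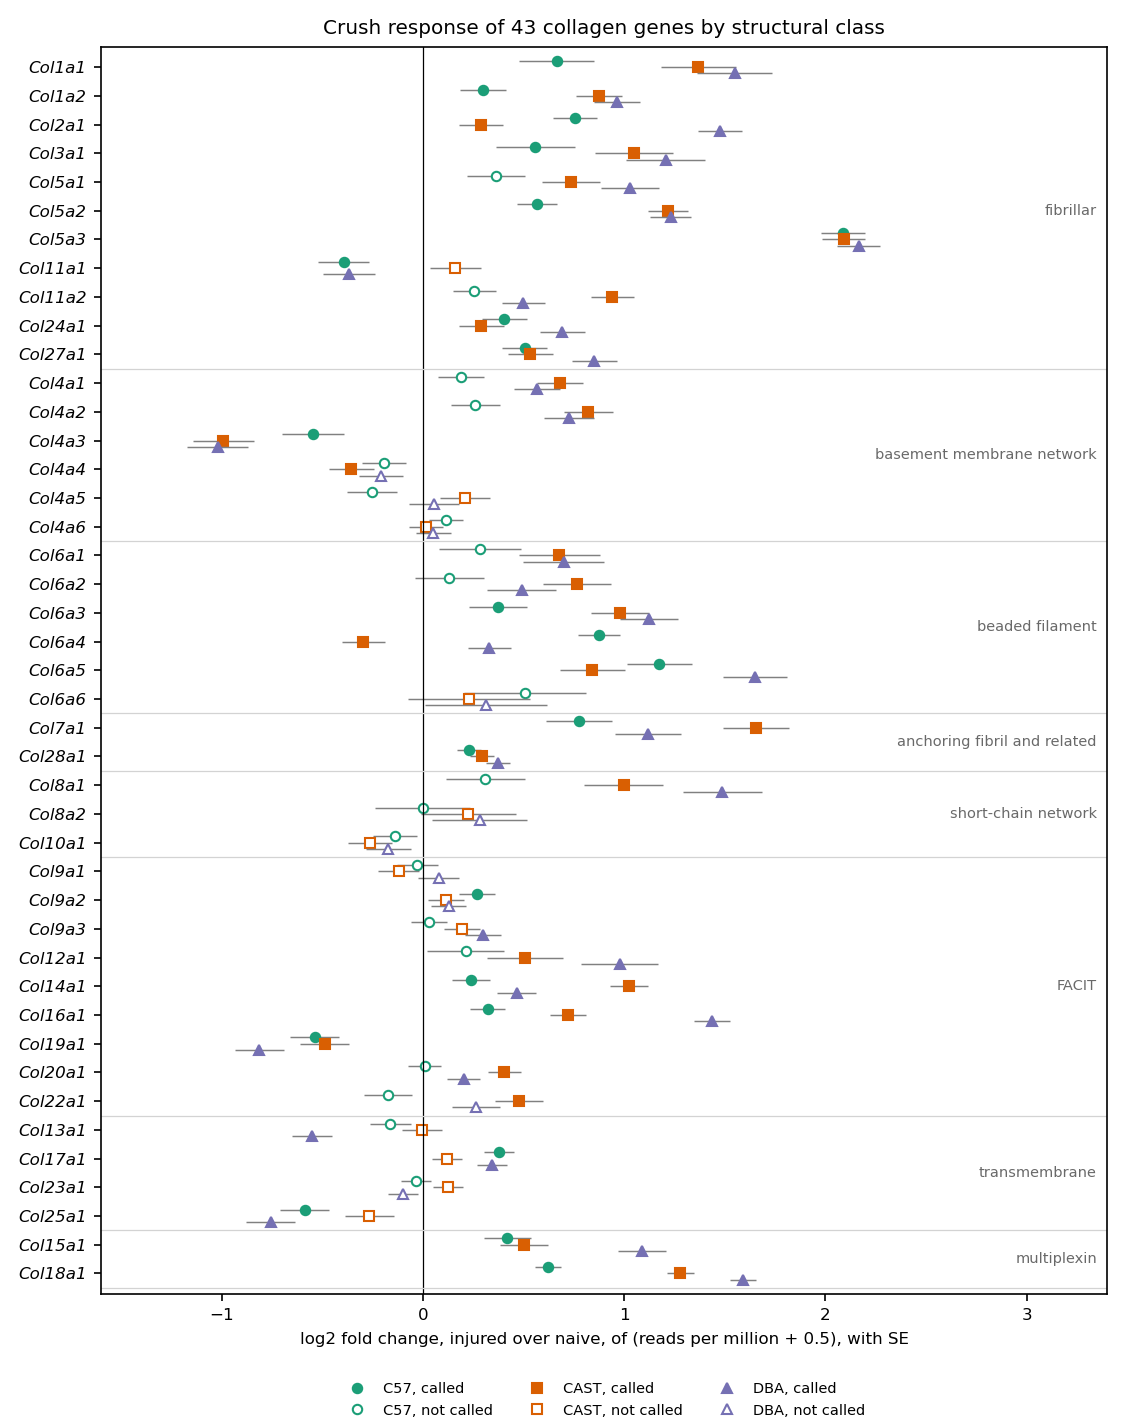
Log2 fold change (injured over naive, of RPM + 0.5) of all 43 collagen genes, with bars for 1 standard error, grouped by structural class. Circles are C57, squares CAST and triangles DBA, filled where the adjusted p was under 0.05. Col5a3 stands apart at 2.09, 2.09 and 2.17, most fibrillar genes lie to the right of 0, and Col4a3, Col19a1 and Col25a1 lie to the left.

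Fibrillar collagens were mostly higher after crush. Of 11 genes, C57 had 8 higher and 1 lower, CAST 10 higher and 0 lower, and DBA 10 higher and 1 lower. Their median log2 fold change was 0.51, 0.87 and 1.03 in the same order. Called were 81.8%, 90.9% and 100% of them, against 40.2%, 48.2% and 51.3% of all genes. In CAST the single gene not called was Col11a1. Without naive C57 replicate 1, C57 had 6 higher and 1 lower.

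Col5a3 (ENSMUSG00000004098, chr9:20770050-20815067, minus strand), the alpha3 chain of type V collagen, changed more than any other member in each strain. In naive C57 ganglia it stood at 80.6, 115, 119 and 119 RPM, and in injured ones at 497, 422, 446 and 465. In CAST the naive libraries held 129.6, 134, 138 and 149 and the injured ones 600.5, 645, 578 and 529. In DBA the naive libraries held 152, 145, 155 and 108 and the injured ones 634, 630.3, 637 and 594. Every injured library was above every naive library of any strain, with no overlap. The mean rose in C57 from 108 ± 18.7 to 458 ± 31.8 (4.22-fold; SD, n = 4 each), in CAST from 138 ± 8.37 to 588 ± 48.1 (4.28-fold) and in DBA from 140.0 ± 21.5 to 624 ± 19.96 (4.46-fold). The log2 changes were 2.09 ± 0.11 (SE; adjusted p = 1.99e-13), 2.09 ± 0.11 (adjusted p = 1.32e-13) and 2.17 ± 0.11 (adjusted p = 5.44e-14). The differences between strains in this change were 0.00 for CAST minus C57 (SE 0.15, adjusted p = 0.994), -0.07 for CAST minus DBA (adjusted p = 0.831) and 0.08 for DBA minus C57 (adjusted p = 0.855), none of which was called.

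Col1a1, the alpha1 chain of type I collagen, the main fibre of connective tissue, rose in all 3 strains. Naive C57 libraries held 59.6, 119.8, 109.6 and 69.7 RPM and injured ones 137, 121, 153 and 137. Naive CAST libraries held 89.8, 79.2, 83.0 and 119.6, and injured ones 269, 234, 227 and 223. Naive DBA libraries held 104, 98.8, 143 and 90.8, and injured ones 349, 317, 282 and 319. The groups did not overlap in any strain, but in C57 the highest naive library (119.8) was close to the lowest injured one (121). The means rose 1.53-fold in C57 (log2 0.66 ± 0.19, adjusted p = 0.00739), 2.56-fold in CAST (1.37 ± 0.19, adjusted p = 3.84e-06) and 2.90-fold in DBA (1.55 ± 0.19, adjusted p = 6.51e-07). Without naive C57 replicate 1 the C57 value was 0.49 (adjusted p = 0.034), and without that library, injured C57 replicate 3 and naive DBA replicate 3 together it was 0.44 and not called (adjusted p = 0.052).

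Col1a2 and Col3a1 make up connective tissue fibrils with Col1a1. Col1a2, the alpha2 chain of type I, went from 172 ± 33.9 to 209 ± 17.8 RPM in C57 (log2 0.30, adjusted p = 0.0439), in CAST from 159 ± 18.6 to 290.4 ± 16.8 (0.87) and in DBA from 202 ± 30.3 to 391 ± 17.4 (0.96). Col3a1, the chain of the fine reticular fibrils, had log2 changes of 0.56, 1.05 and 1.21. In C57 its naive libraries ranged from 68.5 to 142 and its injured ones from 129.6 to 165, so the groups overlapped. The C57 call of Col3a1 (adjusted p = 0.0273) was lost without naive replicate 1 (log2 0.41, adjusted p = 0.11), naive replicate 4 (0.40, 0.11), injured replicate 1 (0.56, 0.051) or injured replicate 3 (0.48, 0.081).

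Col5a1 and Col5a2 are the chains that type V collagen is mostly built from. Col5a2 is given library by library, as are Col14a1, Col16a1, Col20a1, Col11a1 and Col28a1 further on, because of strain differences seen in the values. It went from 25.3, 40.7, 37.7 and 30.6 RPM in naive C57 to 50.02, 46.5, 54.0 and 46.6 in injured C57. In CAST it went from 146, 138, 132 and 146 to 336, 352, 311 and 311, and in DBA from 83.5, 83.1, 89.4 and 70.4 to 209.6, 189, 179 and 188. None of the 6 groups overlapped, and the naive libraries of CAST and DBA lay above the injured libraries of C57. The log2 changes were 0.57, 1.22 and 1.23. Col5a1 changed by 0.36 in C57 (adjusted p = 0.0519, not called), 0.74 in CAST and 1.03 in DBA.

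Col2a1, best known from cartilage, was low: its mean went from 1.24 to 2.43 RPM in C57, in CAST from 0.506 to 0.730 and in DBA from 1.14 to 4.04 (log2 0.75, 0.29 and 1.48, all called). Its CAST call was lost without injured CAST replicate 1 or 4, or naive CAST replicate 1 or 2. Of 12 cartilage and bone markers 11 were tested, of which 2, 4 and 3 were higher and 3, 5 and 4 lower in C57, CAST and DBA. These are 45.5%, 81.8% and 63.6% called, against 40.2%, 48.2% and 51.3% of all genes. The summed level of the 12 markers was lower after crush in each strain, without overlap. It was 75.7 to 84.3 RPM in naive and 68.0 to 71.8 in injured C57. CAST sums were 70.8 to 72.7 and 58.7 to 62.6, and DBA sums 100.1 to 105.8 and 66.4 to 74.4. The cartilage matrix genes Matn1 and Matn3 were below 0.5 RPM in every library. Col27a1 rose by 0.51, 0.53 and 0.85, and Col24a1 by 0.40, 0.29 and 0.69. The CAST call of Col24a1 was lost without injured CAST replicate 1, 2 or 4, or naive CAST replicate 1, 2 or 3. Col11a2 changed by 0.26 in C57 (not called), 0.94 in CAST and 0.50 in DBA. Col11a1 was the 1 fibrillar gene that fell, by 0.40 in C57 and by 0.37 in DBA, while it stood at 0.16 in CAST (adjusted p = 0.33). Its C57 call was lost without naive replicate 2 (-0.33, adjusted p = 0.064) or 3 (-0.28, 0.082), and its DBA call without naive replicate 1 (-0.29, 0.077), naive replicate 3 (-0.34, 0.05) or injured replicate 3 (-0.34, 0.051).

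**Figure D2:**
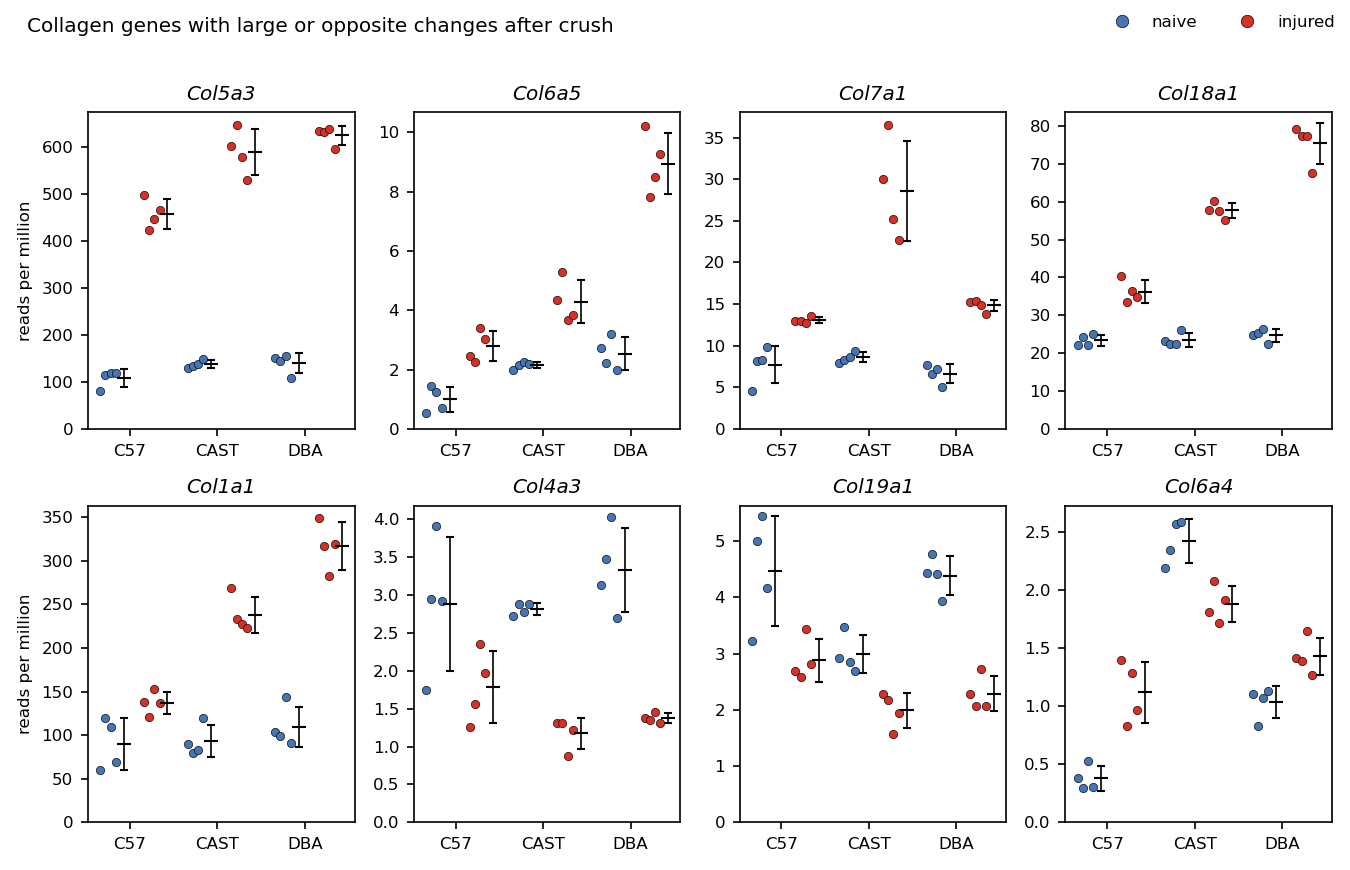
RPM in each of the 24 libraries for 8 collagen genes, with the mean and SD (n = 4) beside each group; each panel has its own vertical axis from 0. Blue points are naive and red points injured. The 7 genes other than Col6a4 were called in the same direction in all strains with at least a 1.5-fold ratio in each, and Col6a4 was called higher in C57 and DBA and lower in CAST.

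Basement membrane collagens split by chain. Of 6 type IV genes, C57 had 0 higher and 1 lower, CAST 2 and 2, and DBA 2 and 1. In that order 16.7%, 66.7% and 50% were called, against 40.2%, 48.2% and 51.3% of all genes. The share was thus below that of all genes in C57 and near it in DBA. The ubiquitous chains Col4a1 and Col4a2, which lie head to head on chromosome 8, changed by 0.19 and 0.26 in C57 (adjusted p = 0.2 and 0.101), by 0.68 and 0.82 in CAST and by 0.57 and 0.73 in DBA. Their annotated starts overlap, so reads there could count for either gene.

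Col4a3, a chain of the network known from kidney and lung, fell in each strain. Naive C57 libraries held 1.75, 2.95, 3.90 and 2.92 RPM and injured ones 1.26, 1.56, 2.35 and 1.97, which overlap. Naive CAST libraries held 2.72, 2.88, 2.78 and 2.88 and injured ones 1.31, 1.31, 0.872 and 1.22. Naive DBA libraries held 3.13, 3.47, 4.02 and 2.70 and injured ones 1.37, 1.35, 1.46 and 1.31. In CAST and DBA every injured library was below every naive one. The naive mean was 1.61, 2.39 and 2.43 times the injured mean (log2 -0.55, -0.99 and -1.02; adjusted p = 0.00517, 4.83e-06 and 2.81e-06). Its neighbour Col4a4, which starts 71 bases away on the other strand, had log2 changes of -0.19 (adjusted p = 0.172), -0.36 (0.00875, called) and -0.21 (0.117). The CAST call of Col4a4 was lost without injured CAST replicate 3 (-0.26, adjusted p = 0.057). Col4a5 and Col4a6, the X-linked pair, were not called in any strain.

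Beaded filament collagens rose in part. Of 6 type VI genes, C57 had 3 higher, CAST 4 higher and 1 lower, and DBA 5 higher. In that order 50%, 83.3% and 83.3% were called, against 40.2%, 48.2% and 51.3% of all genes. The classic chains Col6a1, Col6a2 and Col6a3 changed by 0.28, 0.13 and 0.37 in C57 (Col6a3 alone called, adjusted p = 0.0456, and not without naive replicate 1), by 0.68, 0.77 and 0.98 in CAST and by 0.70, 0.49 and 1.12 in DBA (all called). The DBA call of Col6a2 was lost without naive DBA replicate 4. Col6a5 and Col6a6, with Col6a4, are long chains related to Col6a3, and the 3 genes lie side by side on chromosome 9.

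Col6a5 rose in all 3 strains from a low level. Naive C57 libraries held 0.552, 1.46, 1.26 and 0.706 RPM and injured ones 2.47, 2.27, 3.41 and 3.03. Naive CAST libraries held 1.999, 2.14, 2.26 and 2.19, and injured ones 4.33, 5.28, 3.66 and 3.85. Naive DBA libraries held 2.73, 2.21, 3.21 and 1.98, and injured ones 10.2, 7.81, 8.49 and 9.27. The naive and injured groups of a strain did not overlap. The log2 changes were 1.17 ± 0.16, 0.84 ± 0.16 and 1.65 ± 0.16 (adjusted p = 1.44e-06, 9.76e-05 and 2.94e-09).

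Col6a4 was the 1 member called in opposite directions. In C57 it went from 0.385, 0.299, 0.531 and 0.307 RPM to 1.40, 0.834, 1.28 and 0.969. In DBA it went from 1.10, 0.832, 1.08 and 1.13 to 1.41, 1.39, 1.65 and 1.27. In CAST it went from 2.19, 2.34, 2.57 and 2.58 down to 1.81, 2.08, 1.72 and 1.91. The groups of a strain did not overlap, and naive CAST lay above every other group. The log2 changes were 0.87 ± 0.11 in C57 (adjusted p = 1.52e-07), -0.30 ± 0.11 in CAST (adjusted p = 0.0223) and 0.33 ± 0.11 in DBA (adjusted p = 0.0106). The DBA call was lost without naive DBA replicate 2. The fall in CAST lost its call, at -0.26 to -0.28, without injured CAST replicate 1 (adjusted p = 0.05) or 3 (0.066), or naive CAST replicate 3 (0.058) or 4 (0.061), and at -0.35 with a pseudocount of 0.1 (adjusted p = 0.056). Col6a6 was not called in any strain, with SD as large as 1.72 around a mean of 3.28 in injured DBA.

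The class anchoring fibril and related was a grouping made here of 2 genes, Col7a1 and Col28a1, and does not mean that both form anchoring fibrils. Both were higher in each strain, where 19.3%, 26.3% and 27.1% of all genes were called higher in C57, CAST and DBA. Col7a1, whose protein anchors basement membranes to the tissue below, went from 4.52, 8.22, 8.30 and 9.79 RPM in naive C57 to 13.01, 12.98, 12.8 and 13.6. In CAST it went from 7.98, 8.33, 8.69 and 9.39 to 30.001, 36.5, 25.2 and 22.7, and in DBA from 7.74, 6.55, 7.17 and 5.07 to 15.3, 15.4, 14.9 and 13.9. Every injured library was above every naive one, and injured CAST lay above the other 5 groups. The ratios were 1.70, 3.33 and 2.24 (log2 0.78, 1.66 and 1.12; adjusted p = 0.000511, 1.4e-08 and 4.35e-06). Col28a1, a collagen described in peripheral nerve around glia, rose slightly, by 0.23, 0.29 and 0.37 (adjusted p = 0.00317, 0.000189 and 8.14e-06).

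Both multiplexins, basement membrane collagens that carry sugar side chains, were higher in each strain. Of all genes tested, 19.3%, 26.3% and 27.1% were called higher in C57, CAST and DBA. Col18a1, whose end fragment is known as endostatin, stood at 22.1, 24.2, 22.2 and 25.0 RPM in naive C57 and at 40.3, 33.5, 36.5 and 34.8 in injured C57. In CAST it went from 23.1, 22.3, 22.4 and 26.2 to 57.9, 60.3, 57.6 and 55.1, and in DBA from 24.7, 25.3, 26.5 and 22.3 to 79.2, 77.5, 77.5 and 67.5. The naive libraries of the 3 strains overlapped, and the 3 injured groups did not overlap with them or with each other. The log2 changes were 0.62 ± 0.066, 1.28 ± 0.066 and 1.59 ± 0.066 (adjusted p = 1.79e-08, 9.39e-15 and 8.75e-17). Col15a1 rose by 0.42, 0.50 and 1.09. Col18a1 shares part of its locus with Slc19a1 and Gm7775 in the annotation, so reads there could be split.

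Of 9 FACIT genes, 3 were higher and 1 lower in C57, and 5 higher and 1 lower in both CAST and DBA. Called were 44.4% in C57, near the 40.2% of all genes, and 66.7% in CAST and DBA, against 48.2% and 51.3%. Col16a1 rose by 0.32, 0.72 and 1.44, and Col14a1 by 0.24, 1.02 and 0.46. Col12a1 changed by 0.21 in C57 (not called), 0.51 in CAST and 0.98 in DBA. Its CAST call was lost without injured CAST replicate 1 or 2, or naive CAST replicate 2, 3 or 4. Col20a1 was called in CAST (0.40) and DBA (0.20), Col22a1 in CAST (0.48), and, among the type IX chains, Col9a2 in C57 (0.27) and Col9a3 in DBA (0.30). The DBA call of Col20a1 was lost whenever 1 DBA library, naive or injured, was left out, and with a pseudocount of 0.1. The C57 call of Col9a2 was lost without injured C57 replicate 3 or naive C57 replicate 4. Col9a3 overlaps Tcfl5 in the annotation.

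Col19a1, a FACIT collagen known from neurons of the brain, fell in each strain. Naive C57 libraries held 3.23, 5.00, 5.44 and 4.17 RPM and injured ones 2.68, 2.58, 3.44 and 2.81, which overlap because of naive replicate 1. Naive CAST libraries held 2.92, 3.47, 2.86 and 2.69, and injured ones 2.28, 2.17, 1.57 and 1.94. Naive DBA libraries held 4.43, 4.77, 4.41 and 3.93, and injured ones 2.27, 2.07, 2.72 and 2.06. In CAST and DBA the groups did not overlap. The log2 changes were -0.54, -0.49 and -0.81 (adjusted p = 0.000734, 0.00144 and 2.49e-06). Of 12 sensory neuron markers, 7, 9 and 9 were called lower and 2, 2 and 2 higher in C57, CAST and DBA, and their summed level was 15438 to 17684 in naive and 13217 to 15540 in injured libraries. Of all genes tested, 20.8%, 21.9% and 24.2% were called lower in the same order. The part of neurons in the fall of Col19a1 was not tested.

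The 4 transmembrane collagens showed no common direction. Col25a1, a collagen of neurons with a known part in motor nerve wiring, changed by -0.59 in C57, -0.27 in CAST (adjusted p = 0.0754, not called) and -0.76 in DBA. Col13a1 fell by 0.55 in DBA and stood at -0.16 and -0.00 in C57 and CAST. Col17a1, a chain of skin hemidesmosomes, was called higher in C57 (0.38) and DBA (0.34), at means of 0.203 to 0.412 and 0.131 to 0.301 RPM. Col23a1 was not called. Of the 3 short-chain collagens, Col8a1, a collagen of vessel walls, rose by 0.998 in CAST and 1.49 in DBA and stood at 0.31 in C57 (adjusted p = 0.233), while Col8a2 and Col10a1 were not called; Col10a1 lies within the span of Nt5dc1.

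Summed over the 43 genes, reads on collagen rose from 1222 ± 241 to 1832 ± 88.8 RPM in C57 (SD, n = 4), in CAST from 1334 ± 96.96 to 2764 ± 130.1 and in DBA from 1458 ± 206 to 3177 ± 163. Naive libraries ranged from 917 to 1698 and injured ones from 1711 to 3378, so the lowest injured C57 library lay just above the highest naive DBA library. Col5a3 alone made up 8.95% of these reads in naive C57 and 25.0% in injured C57, while CAST had 10.3% and 21.3% and DBA 9.60% and 19.7%. The share of the whole fibrillar class went from 50.9% to 61.7%, 54.7% to 65.3% and 54.5% to 63.7%. The share of type IV genes went from 15.5% to 11.6%, 13.9% to 10.9% and 16.2% to 11.3%, although Col4a1 and Col4a2 rose in CAST and DBA. These sums count reads, which long transcripts collect more of.

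**Figure D3:**
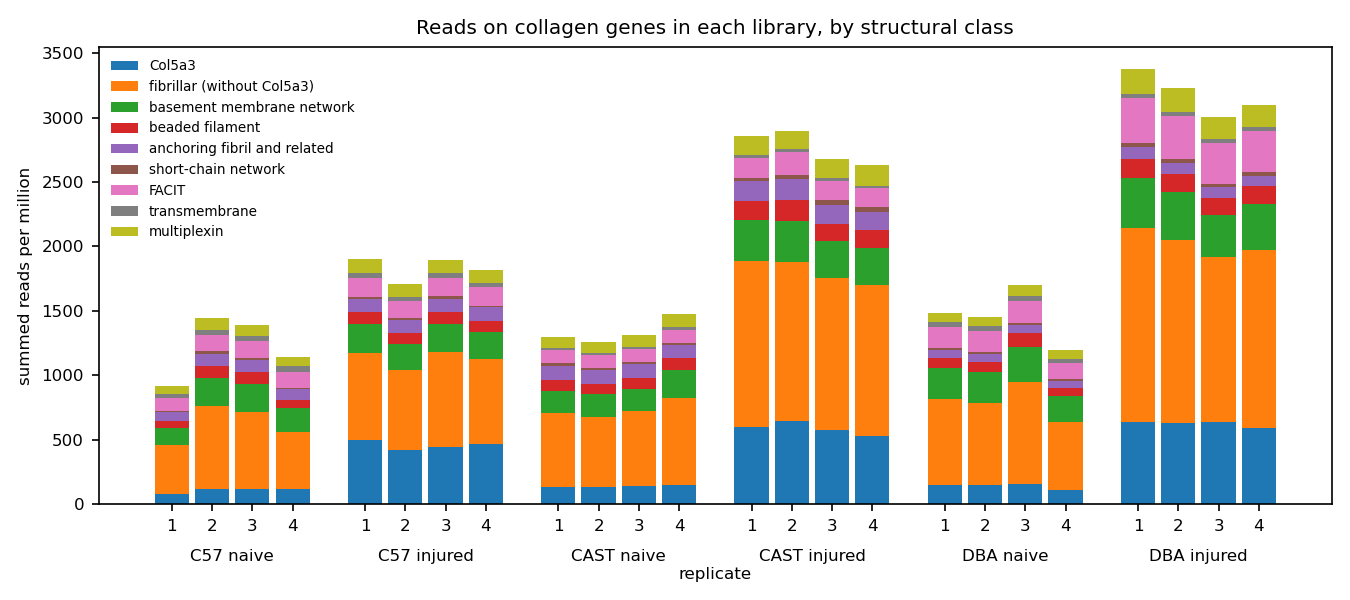
Stacked bars of RPM on collagen genes in each of the 24 libraries, split by structural class, with Col5a3 drawn apart from the other fibrillar genes. Bars start at 0. Naive sums lie between 917 and 1698 and injured sums between 1711 and 3378, and the Col5a3 part is 80.6 to 155 in naive and 422 to 645 in injured libraries.

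In naive C57 ganglia the 8 collagens with the most reads were Col1a2 (172 RPM), Col4a1 (109), Col5a3 (108), Col3a1 (100.04), Col1a1 (89.7), Col28a1 (76.9), Col4a2 (71.2) and Col16a1 (61.9). Per kilobase of annotated exon the order of these levels changed: Col5a3 stood first at 15.9 RPM per exon kilobase, then Col28a1 at 15.7, Col4a1 at 14.6, Col1a2 at 13.8 and Col1a1 at 13.7. Neighbours in this order differed by less than the spread between libraries. On the RPM scale, before division by exon length, the SD was 18.7 around 108 for Col5a3 and 8.08 around 76.9 for Col28a1. It was 21.4 around 109 for Col4a1, 33.9 around 172 for Col1a2 and 29.5 around 89.7 for Col1a1. Whether intronic reads were counted is not given in the sources used here.

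Ratios within a library compare chains of 1 protein, and the scaling by library total cancels out of them. A set of 6 ratios was chosen after the values were seen and tested in each strain by a two-sided exact permutation test, 18 tests in all. With 4 against 4 libraries the smallest p is 0.0286. Of the 18 tests 12 reached it, and that number sets their Benjamini-Hochberg adjusted p at 0.0429. Because the ratios were picked from these values, the adjusted p does not bound the rate of false calls among them. Col1a1 over Col1a2, 2 chains that type I collagen holds in a fixed proportion, went in C57 from 0.511 ± 0.0718 to 0.656 ± 0.0127, in CAST from 0.582 ± 0.0508 to 0.819 ± 0.0265 and in DBA from 0.538 ± 0.0461 to 0.808 ± 0.0418, each at that smallest p. Groups did not overlap in any strain: in C57 the highest naive ratio was 0.574 and the lowest injured one 0.638.

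Col5a3 over Col5a1 went in C57 from 3.88 to 12.7, 3.87 to 9.90 in CAST and 3.89 to 8.51 in DBA, also at the smallest p in each strain. Col5a2 over Col5a1 went in CAST from 3.96 to 5.51 (adjusted p = 0.0429, exact), and in C57 from 1.19 to 1.37 and 2.28 to 2.61 in DBA (adjusted p = 0.0735 in both, exact). Col4a1 over Col4a2 fell in CAST from 1.80 to 1.63 and in DBA from 1.5005 to 1.34 (adjusted p = 0.0429, exact) and stood at 1.53 and 1.46 in C57 (adjusted p = 0.151, exact). Col6a3 over Col6a1 rose in CAST (1.09 to 1.34) and DBA (0.711 to 0.960) and stood at 0.936 and 0.971 in C57. Col6a1 over Col6a2 rose in DBA (0.858 to 0.995) and stood at 0.819 and 0.911 in C57 and at 0.919 and 0.864 in CAST (adjusted p = 0.151 and 0.103, exact).

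The size of the response differed between strains for part of the members. For CAST minus C57, 12 members had a higher and 1 a lower response (12.0% of all genes tested were called, 7.11% higher and 4.9% lower), for DBA minus C57 10 and 1 (9.01%, 4.72% higher and 4.29% lower), and for CAST minus DBA 2 and 6 (14.1%, 7.61% higher and 6.54% lower). The comparisons share groups, so they are not independent. Without naive C57 replicate 1 the counts were 18 and 1, 17 and 1, and 6 and 7. For CAST minus C57 the sum of both directions went from 13 down to 7 without naive C57 replicate 3, and to 8 without injured C57 replicate 4 or without naive CAST replicate 2.

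Against C57, the response of CAST was larger for Col7a1 (difference 0.88 ± 0.23 on the log2 scale, adjusted p = 0.0132), Col14a1 (0.78 ± 0.13), Col11a2 (0.69 ± 0.15), Col18a1 (0.66 ± 0.094), Col5a2 (0.65 ± 0.14) and Col22a1 (0.65 ± 0.17). For Col14a1, naive CAST libraries held 7.83, 8.06, 9.59 and 9.69 RPM and injured ones 17.4, 21.5, 18.3 and 16.4, while C57 went from 16.01, 20.2, 21.5 and 19.8 to 21.5, 22.1, 24.6 and 23.4. Its naive CAST level was below the naive C57 level, and the injured CAST level overlapped with the naive C57 one. On the log2(FPKM + 1) scale, where the added 1 is far above the deposited FPKM of these genes, Col14a1 was not called (0.01, adjusted p = 0.079), nor was Col22a1 (0.0022, 0.11). Col6a4 had the smaller response in CAST (-1.17 ± 0.15, adjusted p = 2.73e-06).

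Against C57, the response of DBA was larger for Col8a1 (1.18 ± 0.28, adjusted p = 0.00924), Col16a1 (1.11 ± 0.13), Col18a1 (0.97 ± 0.094), Col1a1 (0.88 ± 0.26), Col6a3 (0.75 ± 0.20) and Col2a1 (0.72 ± 0.15). Col16a1 went from 92.2, 85.8, 86.8 and 69.1 RPM in naive DBA to 245, 237, 211 and 210.5, against 49.2, 62.1, 62.8 and 73.4 to 80.9, 76.6, 71.4 and 77.9 in C57. Injured DBA lay above all other groups, and in C57 naive replicate 4 overlapped with the injured libraries. The Col1a1 difference (adjusted p = 0.0415) was not called under 14 of the alternatives, 12 of which left out 1 library, with adjusted p up to 0.0909. Col6a3 lost its call without naive C57 replicate 3 (0.67, adjusted p = 0.05). Col6a4 had the smaller response in DBA (-0.54 ± 0.15, adjusted p = 0.0199), a call lost without naive C57 replicate 1, injured C57 replicate 3 and naive DBA replicate 3 together (-0.48, adjusted p = 0.069) and on the log2(FPKM + 1) scale (-0.0040, adjusted p = 0.30).

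Between CAST and DBA, the response of CAST was larger for Col14a1 (0.56 ± 0.13, adjusted p = 0.00454) and Col13a1 (0.55 ± 0.14). It was smaller for Col2a1 (-1.19 ± 0.15, adjusted p = 3.08e-06), Col6a5 (-0.81 ± 0.23), Col16a1 (-0.71 ± 0.13), Col6a4 (-0.63 ± 0.15), Col15a1 (-0.59 ± 0.17) and Col18a1 (-0.31 ± 0.094). The Col18a1 difference (adjusted p = 0.0247) lost its call without injured CAST replicate 4 (-0.29, adjusted p = 0.054), naive CAST replicate 4 (-0.26, 0.068), injured DBA replicate 1 (-0.29, 0.059) or naive DBA replicate 4 (-0.26, 0.067). Under the smaller pseudocount of 0.1 Col6a5 was not called (-0.85, adjusted p = 0.054). On the log2(FPKM + 1) scale Col14a1 stood at -0.0024 (adjusted p = 0.80) and Col13a1 at 0.0022 (adjusted p = 0.11), neither called.

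Naive ganglia differed between strains for 46.5% of the members (CAST against C57), 55.8% (CAST against DBA) and 44.2% (DBA against C57). CAST was higher than C57 for 9 members and lower for 11 (46.0% of all genes were called, 25.1% higher and 20.9% lower), and higher than DBA for 7 and lower for 17 (46.1%, 24.4% higher and 21.7% lower). Without naive C57 replicate 1 the CAST and C57 counts were 8 and 14. DBA was higher than C57 for 17 and lower for 2 (22.7%, 12.1% higher and 10.6% lower), which became 11 and 6 without naive C57 replicate 1, 11 and 3 without naive DBA replicate 3, and 19 and 2 without naive DBA replicate 4. All libraries were aligned to 1 build, mm10, per the submitters' processing notes, so a strain's sequence differences from that build and its expression cannot be told apart.

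Col5a2 had the largest log2 difference between naive CAST and C57, and its means were 33.6 ± 6.94 RPM in C57, 81.6 ± 8.02 in DBA and 140.3 ± 6.80 in CAST (4.18-fold CAST over C57, log2 2.07 ± 0.10, adjusted p = 1.55e-14; 2.43-fold DBA over C57, log2 1.29). Its neighbour on chromosome 1, Col3a1, differed by 0.22 for CAST minus C57 (adjusted p = 0.396) and by 0.32 for DBA minus C57 (adjusted p = 0.283), neither called. At a lower level and so with a larger ratio than log2 difference, Col6a4 was 6.37-fold higher in naive CAST than in C57 (log2 1.74, adjusted p = 2.78e-13) and 2.34-fold higher than in DBA (0.93). Col6a5 was higher in naive CAST (0.87) and DBA (1.05) than in C57, and Col6a6 was higher in DBA than in C57 (1.15).

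Other members were low in naive CAST. Col20a1 held 1.34, 1.12, 1.74 and 1.54 RPM there, against 4.01, 4.71, 5.07 and 4.79 in C57 and 4.69, 4.61, 4.49 and 4.48 in DBA (log2 -1.42 and -1.40). Col11a1 held 13.4, 13.04, 13.5 and 12.2, against 25.0, 42.9, 47.4 and 37.9 in C57 and 37.1, 31.3, 33.5 and 25.0 in DBA (-1.48 and -1.24). Col14a1, given above, was 2.20-fold lower in CAST than in C57 and 3.34-fold lower than in DBA (-1.10 and -1.68). In none of these did the naive CAST libraries overlap with the other strains. Col23a1 was lower in CAST than in C57 (-1.03) and lower in DBA than in C57 (-0.36), and Col25a1 was lower in CAST than in both (-0.64 against C57, -1.10 against DBA). Col2a1 was lower in CAST than in C57 (-0.78).

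Col28a1 ran in its own order: 104, 104, 99.3 and 92.8 RPM in naive CAST, 65.8, 84.2, 81.3 and 76.4 in C57 and 56.7, 57.9, 51.5 and 52.0 in DBA. The 3 strains did not overlap, and each pair was called (0.38 for CAST minus C57, 0.87 for CAST minus DBA and -0.49 for DBA minus C57). Col8a1 (0.85), Col6a3 (0.51) and Col15a1 (0.37) were higher in CAST than in DBA, and Col11a2 (-0.92) and Col27a1 (-0.80) lower. The Col15a1 difference lost its call without naive CAST replicate 4 (0.30, adjusted p = 0.053). Col11a2 (0.85) and Col8a2 (0.77) were higher in DBA than in C57, the latter not without naive C57 replicate 1 (0.68, adjusted p = 0.068), naive C57 replicate 4 (0.55, 0.085) or naive DBA replicate 3 (0.61, 0.085). Col13a1 (0.44) and Col6a3 (0.38) were higher in CAST than in C57. The Col6a3 call was lost without naive C57 replicate 1 (0.19, adjusted p = 0.16) or 4 (0.39, 0.052), or naive CAST replicate 1 (0.38, 0.061), 3 (0.37, 0.071) or 4 (0.36, 0.073).

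**Figure D4:**
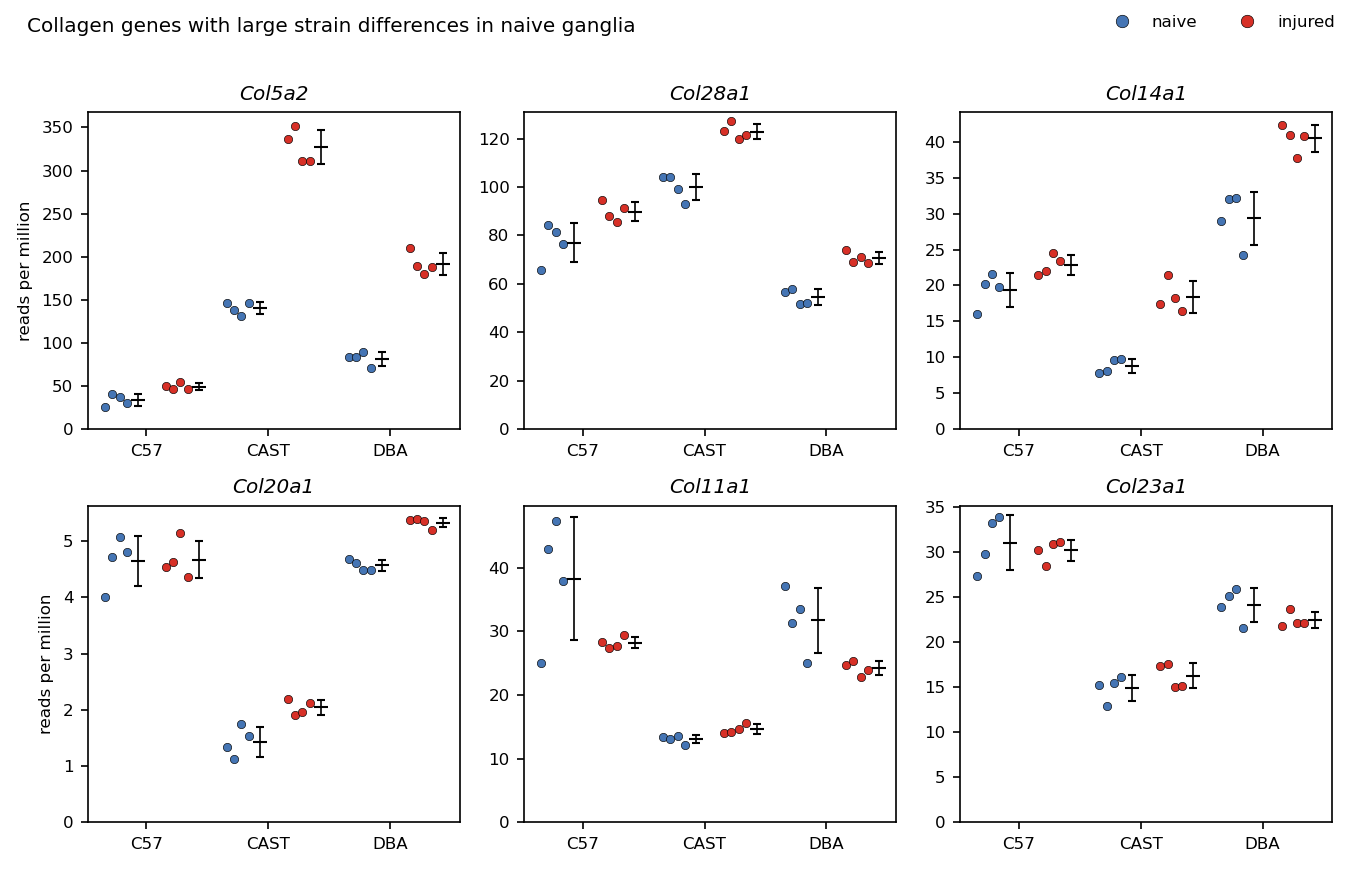
RPM in each of the 24 libraries for 6 collagen genes that differed between naive strains, with the mean and SD (n = 4) beside each group; each panel has its own vertical axis from 0. Col5a2 and Col28a1 are highest in CAST, and Col14a1, Col20a1, Col11a1 and Col23a1 are lowest there, in naive libraries.

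Genes that make, modify, bind and cut collagen were also mostly higher where called. Of 55 listed, C57 had 21 higher and 6 lower (49.1% called, against 40.2% of all genes), CAST 27 and 6 (60.0%, against 48.2%), and DBA 35 and 7 (76.4%, against 51.3%), with median log2 changes of 0.14, 0.27 and 0.38. By role and in the order C57, CAST and DBA, hydroxylation and glycosylation genes were higher in 3, 5 and 8 of 15, chaperones and export genes in 2, 2 and 3 of 4, propeptide proteases and their enhancers in 3, 3 and 3 of 8, cross-linking enzymes in 2, 3 and 4 of 5, fibril-associated proteins in 4, 6 and 6 of 8, receptors in 4, 6 and 8 of 10, and collagenases in 3, 2 and 3 of 5. Called lower were 2, 2 and 2 of the hydroxylation genes, 1, 1 and 1 of the chaperone and export genes, 1, 3 and 3 of the propeptide genes, 1, 0 and 0 of the cross-linking genes and 1, 0 and 1 of the receptors. The hydroxylation and glycosylation genes were called in 33.3%, 46.7% and 66.7%, so in C57 and CAST their share was below or near that of all genes.

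Loxl2, a lysyl oxidase that cross-links collagen and is known to act on type IV, changed most of this list. Its mean went from 10.2 ± 2.2 to 74.99 ± 6.5 RPM in C57 (7.36-fold, log2 2.84 ± 0.14, adjusted p = 1.4e-13), in CAST from 5.66 ± 0.48 to 46.4 ± 3.6 (8.20-fold, 2.93) and in DBA from 6.66 ± 1.7 to 79.9 ± 5.4 (12.002-fold, 3.52). Bmp1, the protease that trims the C-terminal propeptide of fibrillar collagens, rose by 1.28, 1.45 and 1.80. Its relative Tll1 fell by 0.71, 1.09 and 0.96. Ddr2, a receptor kinase for fibrillar collagen, rose by 1.18, 0.72 and 1.42. Lair1, an inhibitory collagen receptor of leukocytes, rose by 0.65, 2.09 and 0.77, and Postn, a matrix protein that binds collagen I, by 0.60, 1.34 and 1.82. Colgalt2, a collagen galactosyltransferase, fell by 0.22, 0.50 and 0.65, and Creb3l1, a factor that drives collagen export, by 0.44, 0.56 and 0.48. Loxl4 and the integrin chain Itga11 fell in C57 (-0.56 each), whereas Loxl4 was higher in DBA (0.49) and Itga11 lower there (-0.39).

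Markers of several cell types were examined beside the collagen genes. In the order C57, CAST and DBA, 40.2%, 48.2% and 51.3% of all genes tested were called (19.3%, 26.3% and 27.1% higher). All 12 of 12 macrophage markers were higher in every strain, with summed levels of 153 to 169 RPM in naive and 355 to 411 in injured C57, CAST sums of 140.3 to 154 and 415 to 496, and DBA sums of 156 to 174 and 400.0 to 450.0. Of 14 fibroblast markers, 7, 9 and 10 were higher and 0, 1 and 0 lower, with sums of 1003 to 1170 and 1430 to 1501 in C57, CAST sums of 981 to 1127 and 982 to 1096, and DBA sums of 1138 to 1268 and 1676 to 1794. Of 5 perineurial markers, 3, 4 and 4 were higher, with sums of 90.1 to 99.8 and 162 to 185 in C57, CAST sums of 87.3 to 112 and 199.9 to 223, and DBA sums of 100.1 to 119 and 171 to 181. Of 11 endothelial markers, 0, 6 and 5 were higher and 1, 0 and 0 lower, with sums of 164 to 181 and 168 to 179 in C57, CAST sums of 175 to 192 and 208 to 251, and DBA sums of 173 to 200.2 and 204 to 216. Called were 50% (C57), 71.4% (CAST) and 71.4% (DBA) of the fibroblast markers and 60%, 80% and 80% of the perineurial ones. Endothelial markers were called in 9.09%, 54.5% and 45.5%. In either direction this was below the share of all genes in C57 and DBA and near it in CAST. All endothelial calls in CAST and DBA were higher, however, so 54.5% and 45.5% stand against 26.3% and 27.1% of all genes called higher. The endothelial sums of naive and injured libraries did not overlap in these 2 strains. In CAST the fibroblast sums of naive and injured libraries overlapped, and in C57 the endothelial sums did. A sum follows the most abundant genes of its list. The fibroblast list includes Thy1, Gsn and Fn1, and whether neurons or other cells contributed to their levels was not tested. Every marker of these 4 lists reached 0.5 RPM in at least 1 library, and 4 marker genes (Dcn, Lum, Fbln1 and Postn) are also in the list of 55.

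The other marker lists are given by their counts, and the pericyte and smooth muscle list by its sums as well. In the order C57, CAST and DBA, 3, 4 and 3 of 10 pericyte and smooth muscle markers were higher and 1, 1 and 1 lower. Their summed level was nonetheless lower after crush in C57 (249 to 283 RPM naive, 194 to 230 injured) and DBA (285 to 324 and 232 to 245). In CAST the sums overlapped (178 to 205 and 173 to 228). Of 12 Schwann cell markers 2, 6 and 3 were higher and 2, 2 and 2 lower, and of 7 satellite glia markers 1, 0 and 2 were higher and 0, 1 and 0 lower. Of 10 skeletal muscle markers 0, 1 and 0 were higher and 1, 1 and 6 lower, where the naive DBA group holds the library with 414 RPM of them. That list includes Pvalb, and whether neurons contributed to its level was not tested. Of 8 adipocyte markers 0, 0 and 0 were higher and 0, 0 and 1 lower, and Lep and Retn were below 0.5 RPM in every library. Shares called were 40%, 50% and 40% (pericyte and smooth muscle), 33.3%, 66.7% and 41.7% (Schwann cell) and 14.3%, 14.3% and 28.6% (satellite glia). For skeletal muscle they were 10%, 20% and 60% and for adipocytes 0%, 0% and 12.5%. Among all genes tested 40.2%, 48.2% and 51.3% were called. The part of any of these cells in the collagen changes was not tested.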

How the data were processed

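Gene expression was measured by RNA-seq of total RNA from dorsal root ganglia in 24 libraries, 4 in each of 6 groups. Reads were aligned with STAR 2.3.0 to mm10, per the submitters' processing notes; for the counting tool, annotation and strand setting the sources used here give nothing. FPKM per gene is what the authors deposited. Low values step in whole reads, which gave read counts (whole within 0.02 reads plus 2e-06 of the count, at most 0.1) for 32058 of 33105 genes above 0 in at least 8 libraries (96.8%), all 43 collagen genes among them. The remaining genes were scaled by their annotated transcript lengths or, without annotation, by the median length. Totals were 51.4 to 145 M reads. The length the authors divided by often includes introns, so values are given here as RPM (reads per 1000000 reads of a library).

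Differences were tested in R 4.3.3 by limma 3.58.1 (and statmod 1.5.0) on log2(RPM + 0.5), with 6 group means, a mean-variance trend and robust moderation, on 27390 genes with at least 10 reads in at least 4 libraries (10825 were removed). The p-values were adjusted by Benjamini-Hochberg within each of 9 contrasts and called under 0.05. The procedure was tested on simulated data. Nothing but the design text says that replicates are separate animals; otherwise p-values measure only the spread between these libraries. The members and all gene lists were chosen with earlier results of these data known. Named were up to 10 called members per direction for each crush contrast and up to 6 per direction for each strain contrast. The 8 highest in naive C57 and up to 3 per direction of the 55 pathway genes were also named. Every other member was accounted for in the crush contrasts. In the strain contrasts, further called members were counted but mostly not named. Alternatives were the log2(FPKM + 1) scale, a pseudocount of 0.1, voom, TMM and upper-quartile scaling, no filter or 100 reads, only the groups compared, a replicate block, and leaving out libraries.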

Additional observations from a re-analysis of the deposited data

Results flagged for a closer look

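The 22 named differences between strains in response are listed again here. They were named because limma called them, so their calls are no separate check. For CAST minus C57 these were Col7a1 (0.88), Col14a1 (0.78), Col11a2 (0.69), Col18a1 (0.66), Col5a2 (0.65), Col22a1 (0.65) and Col6a4 (-1.17), on the log2 scale. For CAST minus DBA they were Col14a1 (0.56), Col13a1 (0.55), Col2a1 (-1.19), Col6a5 (-0.81), Col16a1 (-0.71), Col6a4 (-0.63), Col15a1 (-0.59) and Col18a1 (-0.31). For DBA minus C57 they were Col8a1 (1.18), Col16a1 (1.11), Col18a1 (0.97), Col1a1 (0.88), Col6a3 (0.75), Col2a1 (0.72) and Col6a4 (-0.54).

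Of 60 groups of 4 libraries tested for a value far from the others, 3 held one, where chance gives about 1 in 20. Col5a3 stood at 80.6 RPM in naive C57 replicate 1 and at 594 in injured DBA replicate 4. Col18a1 stood at 67.5 in injured DBA replicate 4.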

How the results depend on the processing

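Of 3297 recomputed values for the 97 named results, 3234 kept their direction and their side of the threshold, 62 kept the direction and lost the call, and 1 reversed: Col14a1 for CAST minus DBA in response, at -0.0024 (adjusted p = 0.80) on the log2(FPKM + 1) scale against 0.56; its FPKM lies far below the added 1. The 97 are the largest called changes of each contrast. Smaller called changes, such as Col1a2, Col6a3 and Col14a1 for crush in C57 and Col20a1 in DBA, were not among them. Many of the fits left out a library of a group not compared, which leaves the fold change itself as it was. Leaving out 1 library at a time, the number of members called ranged from 19 to 25 for crush in C57, 27 to 32 in CAST and 31 to 34 in DBA. For the differences in response it ranged from 7 to 19 (CAST minus C57), 7 to 13 (CAST minus DBA) and 8 to 18 (DBA minus C57), and for naive strains from 19 to 22, 20 to 26 and 14 to 22. With 3 libraries left out together (replicate 1 of naive C57, replicate 3 of injured C57 and replicate 3 of naive DBA), 20 and 18 members were called for CAST minus C57 and DBA minus C57 in response, against 13 and 11; the cause was not tested. Fitting only the groups compared left 17 of the 23 crush calls in C57 and ended those of Col3a1 (adjusted p = 0.12), Col4a3 (0.051), Col11a1 (0.074), Col14a1, Col1a2 and Col6a3. It also ended the DBA minus C57 response calls of Col1a1 (0.082) and Col6a3 (0.060) and the naive calls of Col6a3 for CAST minus C57 (0.080) and Col8a2 for DBA minus C57 (0.090). On the log2(FPKM + 1) scale the calls of Col19a1 for crush in CAST (0.072), Col6a6 for naive DBA minus C57 (0.079) and Col6a3 for naive CAST minus C57 (0.066) were lost. Same-numbered replicates correlated at -0.19 to 0.12 over 12 pairs, of which 4 correlated best with their own number, so the numbers were not taken as pairs; with the replicate block 22, 30 and 33 members were called for crush in C57, CAST and DBA, 10, 8 and 9 for the differences in response and 21, 24 and 16 for naive strains. Members below 1 RPM rest on few reads, as few as 8 for Col17a1.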

Other observations

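The alpha1 chain of type XXVI collagen is listed under its older symbol Emid2 and so lay outside the 43 genes. Emid2 stood at 5.65 ± 0.652 RPM in naive and 6.99 ± 0.686 in injured C57 (SD, n = 4), at 2.45 ± 0.158 and 5.41 ± 0.544 in CAST, and at 5.00 ± 0.317 and 9.74 ± 0.913 in DBA. By limma it rose by 0.29, 0.999 and 0.89 on the log2 scale (adjusted p = 0.00900, 2.23e-10 and 1.57e-09).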
